A study of Homo sapiens with 6 samples.

Results

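A set of 136 genes was silenced in the shHMGA2-2 line of MDA-MB-231 cells, out of 61806 genes in the table. A gene belonged to the set when it had at least 10 counts in both shNC libraries and at most 3 counts in both shHMGA2-2 libraries. Of the 14118 genes with at least 10 counts in both shNC libraries, 0.963% met the rule. The members were thus chosen by their measured counts in shNC and shHMGA2-2, and their low values in shHMGA2-2 are a description of the choice, with no test.

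MDA-MB-231 is an established triple-negative breast cancer cell line. It was infected with lentiviruses carrying a control hairpin (shNC) or one of 2 hairpins against HMGA2 (shHMGA2-1 and shHMGA2-2), and RNA of 2 libraries per line was sequenced. Per the study's methods, stable lines were grown from single clones under puromycin, so a clone and its hairpin cannot be told apart; whether this holds for shNC is not stated there. Nothing in the labels says that the 2 libraries of a line came from separate cultures, and p-values then measure only the spread between these libraries, which may be technical.

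HMGA2 is a chromatin protein that binds AT-rich DNA through its AT hooks and bends it, and so assists the assembly of transcription factors. It is active in the embryo, silent in most adult tissues and expressed again in many carcinomas. How strongly a gene is transcribed depends on its promoter, its distal enhancers and its chromatin state, none of which RNA sequencing measures.

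The 6 libraries held 16461178 to 17167293 counts, and 3 counts, the most that a reading of 0 allows for, corresponded to 0.175 to 0.182 CPM (counts scaled to a common library total). Such limits cover counting error only. The targeted gene, HMGA2, gave 2126 and 2161 counts in shNC, with 858 and 989 in shHMGA2-1 and then 435 and 482 in shHMGA2-2. Its log2 fold change against shNC was -1.29 ± 0.09 (SE, adjusted p = 2.17e-11) in shHMGA2-1 and -2.31 ± 0.09 (adjusted p = 2.11e-16) in shHMGA2-2, by edgeR's quasi-likelihood test. HMGA2 was thus lower in both lines and lowest in shHMGA2-2, where it was still read.

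In the shNC libraries the members summed to 8989 and 9109 counts, or 530 and 536 CPM. In shHMGA2-1 they summed to 6604 and 6909 counts, or 385 and 403 CPM. In shHMGA2-2 they summed to 138 and 146 counts. As a sum, the members were therefore kept for the most part in the other knockdown line. The sum is weighted to the members with many counts. The median member had 21 and 18 counts in the shNC libraries, against 12 and 11 in shHMGA2-1.

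At the edge of detection, 40 members were at 0 in both shHMGA2-2 libraries, 45 were at 0 in 1 of the 2, and 51 had a count above 0 in both. The lowest shNC count lay between 10 and 19 for 80 members, between 20 and 49 for 23, between 50 and 99 for 14, and at 100 or more for 19. Compared per length, the median member had 0.58 FPKM in shNC, against 4.55 for genes with at least 10 counts in both shNC libraries, and 126 members (92.6%) were below that median. The set was therefore one of weakly transcribed genes, with a smaller group of 44 at or above 1 FPKM.

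The thresholds cut through a continuum. Just inside the shHMGA2-2 limit, with 3 counts in each library, were 9 members, of which ATP8A2, SDR16C5 and BST1 were the highest in shNC. Just outside it, with 4 or 5 counts at most in shHMGA2-2, were 69 genes, the highest of which were FOXA2 (772 and 847 counts in shNC, 4 and 0 in shHMGA2-2), WNT7B (577 and 625, then 4 and 2) and PLA2G4A (219 and 217, then 0 and 5). At the shNC limit, TMEM30B (10 and 12 counts), ENSG00000272630 (10 and 11) and ENSG00000288844 (11 and 11) were the lowest members, and 34 genes with 8 or 9 counts as their lower shNC value fell outside.

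Of the members, 82 (60.3%) were protein-coding, against 83.8% of genes with at least 10 counts in both shNC libraries. Long noncoding RNAs numbered 36 (26.5%, against 9.48%), pseudogenes 8, small RNAs 2 and genes to be experimentally checked 2, and 6 were not in the annotation used. These shares were not matched for the level in shNC, which was lower for the members. The transcripts' median GC content was 46.4%, against 47.6% for the other genes with at least 10 counts. Protein-coding members spanned a median of 60.8 kb on the chromosome, against 34.7 kb. The exonic length of protein-coding members differed less, with a median of 5120 bases against 5518.

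Members lay on 23 chromosomes, most often on chromosome 10 (13 of 600 genes with at least 10 counts, 2.17%) and least often on chromosome 11 (2 of 779, 0.257%). On the X chromosome 7 of 472 genes (1.48%) were members. In the order of genes with at least 10 counts in both shNC libraries, 10 members were next to another member, in 5 pairs. The median distance from a member to the nearest other one was 7.26 Mb, so that most members stood alone.

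Of the 5 pairs, 3 lay on the X chromosome, and 2 of these held members that were higher in shHMGA2-1 than in shNC. NAP1L3 encodes a histone chaperone of the nucleosome assembly protein family and FAM133A a little-studied protein. They lie head to head, at chrX:93670930-93673578 on the minus strand and chrX:93674013-93712274 on the plus strand, with 434 bases between their spans. HS6ST2, which adds sulfate to heparan sulfate chains, and GPC4, a glypican that carries such chains on the cell surface, lie on the minus strand at chrX:132626015-132961395 and chrX:133300103-133415489, 339 kb apart.

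The bases upstream of 3 of these genes are shown because the pairs went from transcribed to nearly silent together. They are 200 bases 5′ of the gene's span, written in the direction of the gene, from RefSeq on GRCh38.p14, with each CG (searched as the letters CG, which read the same on both strands) in capitals.
NAP1L3 upstream, chrX:93673579-93673778, minus strand: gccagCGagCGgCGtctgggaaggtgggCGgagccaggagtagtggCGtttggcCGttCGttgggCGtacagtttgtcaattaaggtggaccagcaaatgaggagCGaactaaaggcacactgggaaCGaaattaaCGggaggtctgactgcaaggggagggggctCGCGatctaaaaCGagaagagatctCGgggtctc
GPC4 upstream, chrX:133415491-133415690, minus strand: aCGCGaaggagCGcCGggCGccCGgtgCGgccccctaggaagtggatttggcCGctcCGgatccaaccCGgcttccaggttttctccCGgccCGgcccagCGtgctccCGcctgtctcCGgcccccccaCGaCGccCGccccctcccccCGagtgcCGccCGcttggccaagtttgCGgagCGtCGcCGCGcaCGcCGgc
HS6ST2 upstream, chrX:132961396-132961595, minus strand: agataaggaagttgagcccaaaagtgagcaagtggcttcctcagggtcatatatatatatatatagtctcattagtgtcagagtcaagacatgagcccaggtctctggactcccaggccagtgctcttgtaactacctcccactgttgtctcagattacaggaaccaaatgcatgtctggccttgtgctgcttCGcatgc

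The NAP1L3 stretch held 15 CG and the GPC4 stretch 28, while the HS6ST2 stretch held 1. For FAM133A the stretch outside annotated exons was 57 bases with 1 CG, and it is not printed. Over 35116 promoters the median was 9 CG in the 200 bases before the RefSeq start (quartiles 2 and 19), which can differ from the end of the gene's span. At least 1 CG was held by 92% of them, at least 15 by 37.4%, and at least 28 by 7.46%. Silencing in shHMGA2-2 was thus seen for genes with CG-rich and with CG-poor upstream sequence. A comparison over the set was not made, as 57 of the 82 protein-coding members (69.5%) had a promoter in the table.

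NAP1L3 gave 109 and 89 counts in shNC, with 358 and 375 in shHMGA2-1 and then 0 and 0 in shHMGA2-2. Its neighbour FAM133A gave 12 and 20 counts in shNC, with 28 and 40 in shHMGA2-1 and then 0 and 0 in shHMGA2-2. In both genes the shHMGA2-1 libraries lay above the shNC libraries and the shHMGA2-2 libraries lay at 0. The rise in shHMGA2-1 passed the test for NAP1L3 (log2 fold change 1.81 ± 0.16, edgeR adjusted p = 2.81e-09), while FAM133A gave 1.01 ± 0.43 (adjusted p = 0.0807).

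GPC4 gave 150 and 160 counts in shNC, with 308 and 360 in shHMGA2-1 and then 0 and 1 in shHMGA2-2. HS6ST2, the member with the highest CPM in shNC, gave 564 and 627 counts in shNC, with 732 and 845 in shHMGA2-1 and then 2 and 3 in shHMGA2-2. Again no shHMGA2-1 library overlapped shNC, and both genes were higher there: GPC4 by a log2 fold change of 1.03 ± 0.15 (edgeR adjusted p = 6.5e-06) and HS6ST2 by 0.33 ± 0.10 (adjusted p = 0.0174). The HS6ST2 value lost significance with DESeq2 (0.31, adjusted p = 0.133), without shNC replicate 1 (0.25, adjusted p = 0.233) and without shHMGA2-1 replicate 2 (0.20, adjusted p = 0.15).

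The third X pair was NRK, a kinase of the germinal centre kinase family, and PWWP3B, a chromatin protein with a PWWP domain, 210 kb apart. NRK gave 344 and 353 counts in shNC, with 220 and 245 in shHMGA2-1 and then 0 and 0 in shHMGA2-2. PWWP3B gave 13 and 13 counts in shNC, with 2 and 2 in shHMGA2-1 and then 0 and 0 in shHMGA2-2. Both genes lay below shNC in both shHMGA2-1 libraries, and NRK, with 220 and 245 counts there, gave a log2 fold change of -0.66 ± 0.13 (edgeR adjusted p = 0.000396).

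**Figure D1:**
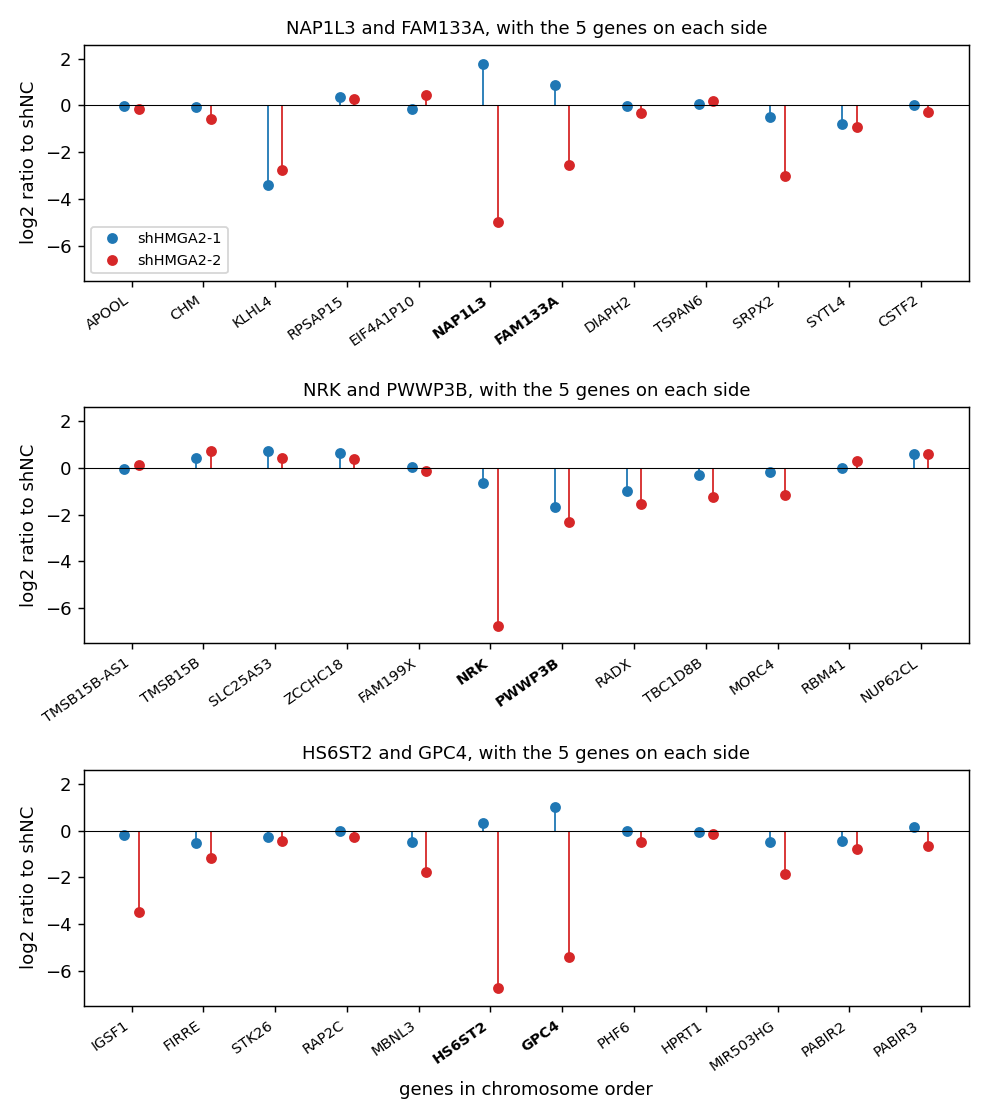
Log2 ratio to shNC (mean CPM, 0.2 CPM added to each) of the 3 pairs of silenced genes on the X chromosome and the 5 genes on each side with at least 10 counts in both shNC libraries, in chromosome order, with shHMGA2-1 in blue, shHMGA2-2 in red and the members in bold. In shHMGA2-2, NAP1L3 (-4.98), NRK (-6.76), HS6ST2 (-6.74) and GPC4 (-5.41) are below the genes beside them. Of these, DIAPH2 (-0.32), FAM199X (-0.13) and PHF6 (-0.47) stay close to 0 while RADX (-1.55) and MBNL3 (-1.79) are lower. The members FAM133A (-2.57) and PWWP3B (-2.32) lie above IGSF1 (-3.49), SRPX2 (-3.01) and KLHL4 (-2.76), which are not members.

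The genes beside the X pairs were mixed in shHMGA2-2. By the rule, none of them could have at most 3 counts in both shHMGA2-2 libraries, since it would then be a member. Beside and next to refer here to the order of genes with at least 10 counts in both shNC libraries, and distances can be large. FAM133A ended at chrX:93712274, for example, and DIAPH2 began at chrX:96684712. DIAPH2, next to FAM133A, gave 497 and 462 counts in shNC against 395 and 414 in shHMGA2-2, and FAM199X, next to NRK, gave 1287 and 1206 in shNC against 1249 and 1149 in shHMGA2-2. PHF6, next to GPC4, gave 1753 and 1730 counts in shNC against 1336 and 1323 in shHMGA2-2. On the other side of HS6ST2, MBNL3 gave 566 and 687 counts in shNC, against 211 and 167 in shHMGA2-2, a log2 ratio of -1.79. RADX, next to PWWP3B, gave 191 and 200 counts in shNC against 75 and 61 in shHMGA2-2 (-1.55), followed by TBC1D8B (-1.24) and MORC4 (-1.15). Farther from the pairs, IGSF1 (-3.49), SRPX2 (-3.01) and KLHL4 (-2.76) were also low in shHMGA2-2, KLHL4 with a ratio of -3.39 in shHMGA2-1 as well. By this ratio they lay below the members FAM133A (-2.57) and PWWP3B (-2.32), which had few counts in shNC.

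The 2 remaining pairs involved noncoding or pseudogene partners. On chromosome 14, SYT16, an atypical synaptotagmin of membrane traffic, gave 185 and 205 counts in shNC, with 87 and 113 in shHMGA2-1 and then 0 and 2 in shHMGA2-2. ENSG00000279633, 8.34 kb away on the same strand, had 14 and 18 counts, then 3 and 2, then 0 and 2. Here the neighbour on the near side, SNAPC1, a subunit of the small nuclear RNA activating complex, was lower in shHMGA2-2 too, with 6448 and 6169 counts in shNC against 1238 and 1345. On chromosome 9, ENSG00000283162 (117 and 111 counts in shNC, then 105 and 96 in shHMGA2-1, then 1 and 1 in shHMGA2-2) contains on its opposite strand VN1R48P, a vomeronasal receptor pseudogene (15 and 17, 1 and 9, then 1 and 0), and reads of these 2 cannot be told apart without strand.

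The nearest gene on each side of a member that was no member itself gave 258 genes. Their median log2 ratio in shHMGA2-2 was -0.38, against -0.04 over the 13982 other genes with at least 10 counts in both shNC libraries. At least 2-fold lower were 69 of them (26.7%), against 9.68%. In shHMGA2-1 the medians were -0.09 and -0.01. These values are a description, since the contrast of shHMGA2-2 with shNC chose the members.

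These neighbours were split by whether they overlap a member. Of 28 nearest genes that overlapped a member, 19 (67.9%) were at least 2-fold lower in shHMGA2-2, with a median of -1.42. Of the 230 that did not overlap one, 50 (21.7%) were, with a median of -0.28. The overlapping group thus had the lower median, and the other still lay above the 9.68% of all other genes. Single genes of the second group were among the lowest, such as FOXA2 (-7.30), LINC01139 (-5.61) and GALNT3 (-5.39). At least 4-fold lower were 11 genes of the overlapping group (39.3%) and 20 of the other (8.7%), against 2.5% of all other genes.

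Counting all overlaps, 30 members shared bases with a gene of at least 10 counts in both shNC libraries, 27 of them with one on the opposite strand. The strand setting of the counting is not given, so reads of such a pair cannot be told apart. WNT5A-AS1 gave 12 and 19 counts in shNC, with 19 and 11 in shHMGA2-1 and then 1 and 2 in shHMGA2-2, and WNT5A, a ligand of noncanonical Wnt signalling on the opposite strand, had 265 and 250, 248 and 301, then 9 and 13. Both genes of this pair had overlapping counts in shNC and shHMGA2-1 and were low in shHMGA2-2. ZNF804A, a zinc finger protein that overlaps ENSG00000283839, gave 659 and 661 counts in shNC, with 476 and 551 in shHMGA2-1 and then 4 and 13 in shHMGA2-2. CCBE1, a secreted factor of lymphatic vessel growth that overlaps ENSG00000267774, had 1998 and 1814, 830 and 889, then 59 and 59.

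HAS2-AS1 and HAS2 went the other way. HAS2-AS1 gave 15 and 16 counts in shNC, with 0 and 1 in shHMGA2-1 and then 2 and 3 in shHMGA2-2. HAS2, a hyaluronan synthase that its antisense gene overlaps, gave 155 and 155 counts in shNC, with 8 and 2 in shHMGA2-1 and then 103 and 102 in shHMGA2-2. The antisense gene was thus low in both lines, whereas its partner had a log2 ratio to shNC of -4.31 in shHMGA2-1 and of -0.66 in shHMGA2-2.

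**Figure D2:**
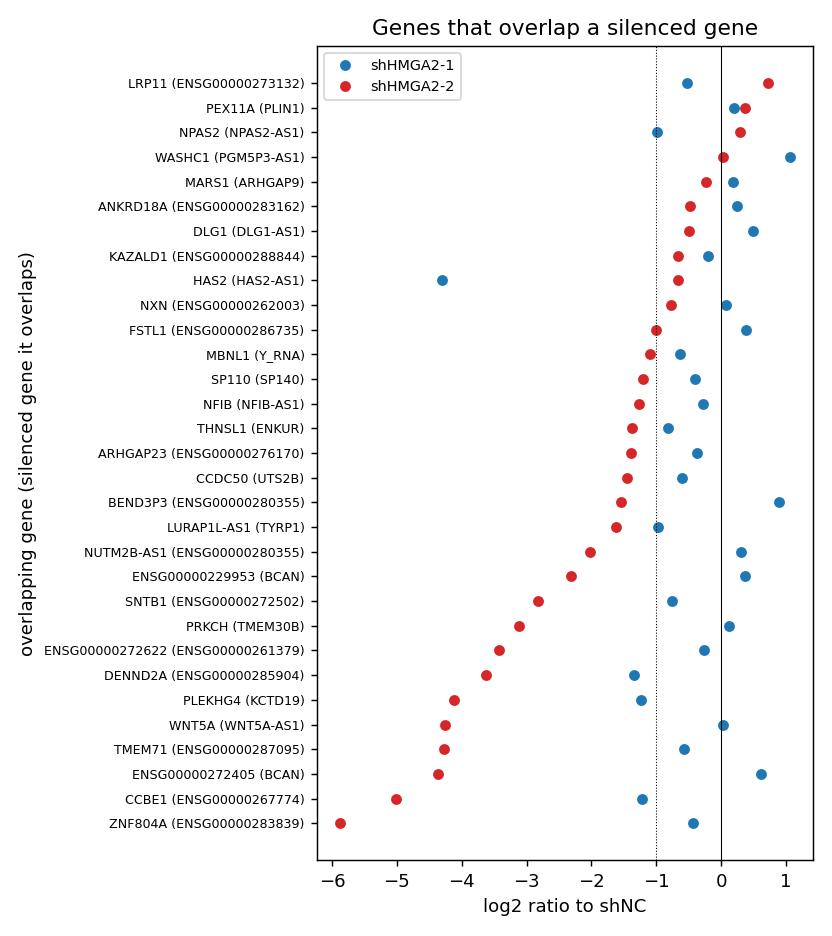
Log2 ratio to shNC (mean CPM, 0.2 CPM added to each) of the 31 genes with at least 10 counts in both shNC libraries that overlap a silenced gene, whose name is in parentheses, with shHMGA2-1 in blue and shHMGA2-2 in red and a dotted line at 2-fold lower. In shHMGA2-2, 21 of the 31 are at least 2-fold lower and the median is -1.39, while in shHMGA2-1 4 are and the median is -0.28.

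The level of the set in shHMGA2-1, the line that the rule did not use, was examined next. This comparison shares the shNC libraries with the rule and is not independent of it. In shHMGA2-1, 71 members (52.2%) kept at least 10 counts in both libraries, against 97.1% of all genes with at least 10 counts in both shNC libraries. At most 3 counts in both shHMGA2-1 libraries were found for 16 members (11.8%), against 0.241% (34 genes), so that members made up 47.1% of those 34. The remaining 49 members lay between.

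Low counts in shNC go with these classes. Among the 80 members whose lower shNC count was 10 to 19, 24 kept at least 10 counts in both shHMGA2-1 libraries and 14 had at most 3, where 75.2% and 1.98% of all genes in that range did so. All 19 members with at least 100 counts in both shNC libraries kept at least 18 counts in each shHMGA2-1 library. The sets with few counts in both lines and with high counts in shNC therefore did not overlap.

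edgeR tested 133 of the 136 members in shHMGA2-1; BST1, CETN4P and HES2 did not pass its filter on low counts. A member was called when its adjusted p was under 0.05 and its change at least 2-fold. Of the 133, 51 (38.3%) were lower and 5 (3.76%) higher. Over all 16110 genes tested, 3.59% were called lower and 4.89% higher, and over tested genes with at least 10 counts in both shNC libraries 3.96% and 2.85%. With DESeq2 the calls were 24 lower and 3 higher. Members with few counts in both knockdown lines passed the filter through their shNC counts alone, so these shares are given for reading the genes below and support no statement on the set.

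The members' median log2 fold change in shHMGA2-1 was -0.87 (quartiles -1.92 and -0.13), beside 0.01 over all genes tested and -0.01 over tested genes with at least 10 counts in both shNC libraries. Another 3 members had an adjusted p under 0.05 with a decrease under 2-fold, and 2 with an increase under 2-fold. The remaining 72 did not pass the test. In CPM, both shHMGA2-1 libraries lay below both shNC libraries for 97 members, where 35.4% of genes with at least 10 counts in both shNC libraries did, and above them for 19, where 31.4% did. The set was therefore mixed in shHMGA2-1, with members that were nearly as low as in shHMGA2-2, members at the shNC level and members above it.

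**Figure D3:**
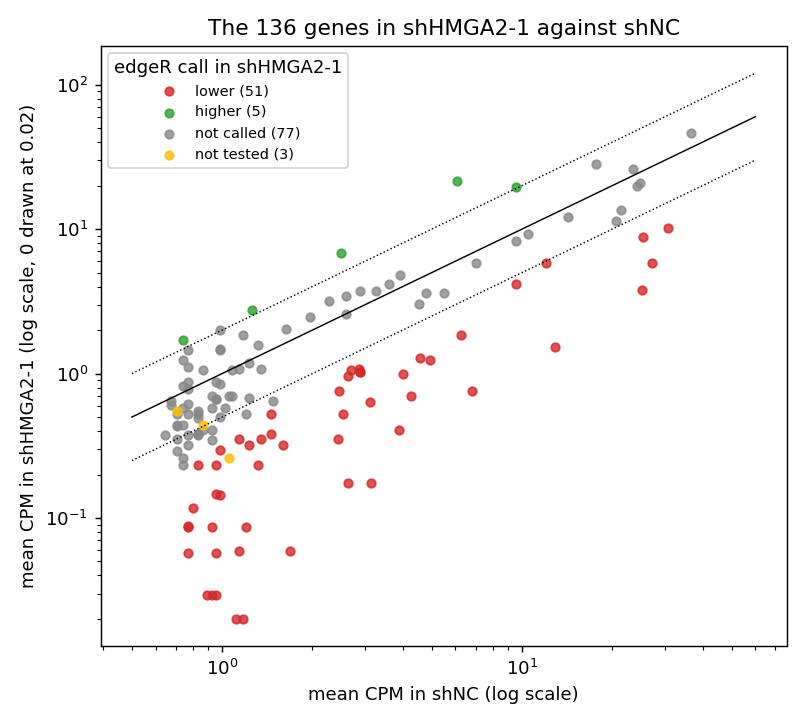
Mean CPM in shHMGA2-1 (vertical, log scale, values of 0 drawn at 0.02) against mean CPM in shNC (horizontal, log scale) for the 136 silenced genes, each a point, coloured by the edgeR call in shHMGA2-1. The solid line marks equal levels and the dotted lines 2-fold changes; 51 genes are called lower, 5 higher, 77 are not called and 3 were not tested.

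**Figure D4:**
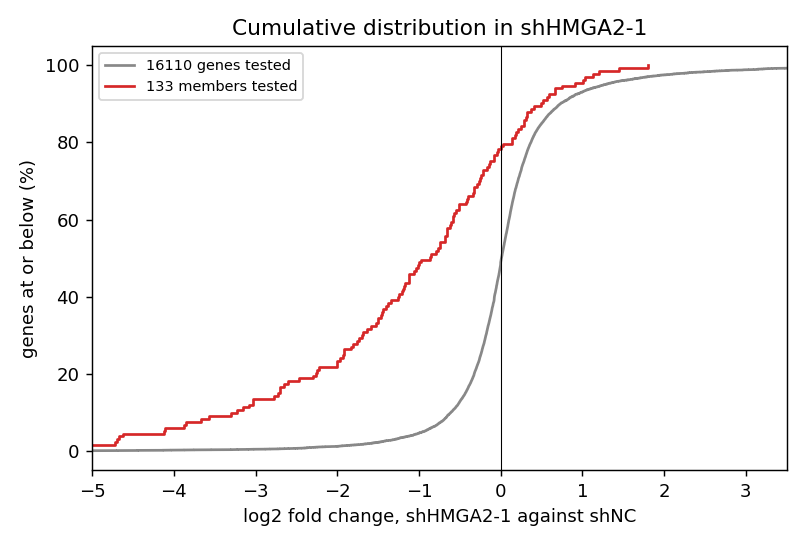
Share of genes (vertical, %) at or below each log2 fold change of shHMGA2-1 against shNC (horizontal, from -5 to 3.5) for the 133 silenced genes tested in red and all 16110 genes tested in grey. The red line lies to the left, with a median of -0.87 beside 0.01.

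Among the protein-coding members, 15 encode secreted or matrix proteins, 14 receptors and other surface proteins, 9 channels and transporters, 11 kinases, GTPase regulators and adaptors, 10 proteins of the cytoskeleton, membrane traffic and synapse, 6 nuclear proteins, 6 metabolic enzymes or lipid droplet proteins, and 11 others. This grouping was made by hand after the members were known. Counts per role below stand beside 52.2% of all members with at least 10 counts in both shHMGA2-1 libraries and 11.8% with at most 3. Of all genes with at least 10 counts in both shNC libraries, 97.1% and 0.241% did so. Differences between roles were not tested. Calls are not counted per role, since many roles hold members that passed the filter through shNC alone. By the gene ontology terms in the table, 16 of 85 annotated members (18.8%) carried "extracellular region", against 6.12% of annotated genes with at least 10 counts in both shNC libraries. For "plasma membrane" the shares were 37.6% and 19%, for "inflammatory response" 5.88% and 1.37%, for "nucleus" 16.5% and 36.5%, and for "mitochondrion" 3.53% and 9.72%. Read as counts without a test, the annotated members carried secreted and membrane terms more often and nuclear and mitochondrial terms less often. These shares were not matched for the level in shNC, where the members had a median of 0.58 FPKM, against 4.55. Whether the shares differ between genes of like level was not tested.

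Of the 15 secreted and matrix members, 9 kept at least 10 counts in both shHMGA2-1 libraries and 1 had at most 3. THBS2, a matricellular thrombospondin, gave 278 and 296 counts in shNC, with 498 and 465 in shHMGA2-1 and then 0 and 0 in shHMGA2-2, and was higher in shHMGA2-1 by a log2 fold change of 0.67 ± 0.12 (edgeR adjusted p = 0.000115). BMP2, a bone morphogenetic protein, gave 70 and 78 counts in shNC, with 53 and 51 in shHMGA2-1 and then 0 and 0 in shHMGA2-2. Its log2 fold change in shHMGA2-1 was -0.59 ± 0.26 (adjusted p = 0.0843). Both genes were thus read in shHMGA2-1 at levels of the order of shNC.

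Other secreted members behaved differently. PAPPA2, a protease that releases insulin-like growth factors from their binding proteins, gave 23 and 18 counts in shNC, with 50 and 45 in shHMGA2-1 and then 2 and 1 in shHMGA2-2. OVCH2, a secreted serine protease of the ovochymase family, had 10 and 14, 33 and 26, then 0 and 0. Both were called higher in shHMGA2-1 (1.13 ± 0.35, edgeR adjusted p = 0.0155, and 1.21 ± 0.46, adjusted p = 0.0439), and neither call was made by DESeq2 (adjusted p = 0.178 and 0.305) or without some single libraries. PAPPA2 gave 0.96 (adjusted p = 0.121) without shNC replicate 2 and 1.07 (0.0794) without shHMGA2-1 replicate 1, and OVCH2 gave 0.99 (0.23) without shNC replicate 1, 1.47 (0.088) without shNC replicate 2 and 1.05 (0.172) without shHMGA2-1 replicate 1. With the replicate block OVCH2 gave an adjusted p of 0.0707.

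The cytokine members had few counts in both knockdown lines. CSF3, which drives granulocyte production, gave 29 and 14 counts in shNC, with 3 and 5 in shHMGA2-1 and then 3 and 1 in shHMGA2-2. CCL26, an eosinophil chemokine, gave 18 and 11 counts in shNC, with 0 and 1 in shHMGA2-1 and then 0 and 0 in shHMGA2-2. Both reached the test through their shNC counts alone, which chose them, so they are described by counts. They were the 2 members among 35 cytokine, chemokine and receptor genes with at least 10 counts in both shNC libraries. This is 5.71%, beside 0.963% of all such genes, and the difference was not tested.

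Among the 14 receptors and surface proteins, 6 kept at least 10 counts in both shHMGA2-1 libraries and 2 had at most 3. GPC4, described above, was called higher. SLAMF7, an immune cell receptor of the SLAM family, gave 391 and 432 counts in shNC, with 156 and 147 in shHMGA2-1 and then 2 and 0 in shHMGA2-2. TMEM156, a transmembrane protein of little-known role and the highest member per length in shNC at 10.1 FPKM, had 436 and 447, 94 and 105, then 1 and 2. Each step down left no overlap between lines, and in shHMGA2-1 SLAMF7 fell by 1.52 (SE 0.14, edgeR adjusted p = 8.14e-09) and TMEM156 fell by 2.23 (SE 0.14, adjusted p = 1.13e-11) on the log2 scale.

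Some members are known from blood or vessel cells, and the markers of those cells are given beside them. PECAM1, an endothelial adhesion molecule, gave 14 and 11 counts in shNC, with 2 and 0 in shHMGA2-1 and then 2 and 0 in shHMGA2-2. Of 10 endothelial markers, 3 had at least 10 counts in both shNC libraries, and ERG and EMCN were at 0 in all 6 libraries. The list's sum was 170 and 175 CPM in shNC, then 135 and 119 in shHMGA2-1 and finally 13.7 and 16 in shHMGA2-2, mostly ESAM, with 2805 and 2878 counts in shNC and 176 and 201 in shHMGA2-2. KDR, the third, gave 58 and 57 counts in shNC, 60 and 46 in shHMGA2-1, then 44 and 61 in shHMGA2-2. Of 20 leukocyte markers, LCP1 and LAPTM5 reached 10 counts in both shNC libraries, PTPRC had 2 and 1 there, and CD2, CD3D, CD3E, MS4A1, GNLY and FCGR3A were at 0 in all libraries. The leukocyte list summed to 20.6 and 17.9 CPM in shNC, then 6.64 and 7.36 in shHMGA2-1 and finally 3.95 and 3.07 in shHMGA2-2. Single markers differed from the sum: CORO1A gave 7 and 10 counts in shNC, then 38 and 70 in shHMGA2-1, then 17 and 20 in shHMGA2-2, and ITGAM gave 0 and 2, 1 and 1, then 16 and 5. The part of other cells in the result was not tested.

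Channels and transporters had 4 of 9 members with at least 10 counts in both shHMGA2-1 libraries and 1 with at most 3. By the list of potassium, sodium and calcium channel subunits, 5 of 32 genes with at least 10 counts in both shNC libraries (15.6%) were members, beside 0.963% of all such genes. This share was not matched for the level in shNC either. KCNQ3, a subunit of the M-type potassium channel, gave 396 and 420 counts in shNC, with 77 and 53 in shHMGA2-1 and then 2 and 0 in shHMGA2-2. SCN2A, a voltage-gated sodium channel, had 45 and 35, 15 and 11, then 1 and 3. KCNH1, a voltage-gated potassium channel, had 14 and 26, 7 and 4, then 2 and 1.

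In these 3 channels shHMGA2-1 lay between the other lines. KCNQ3 fell by 2.73 on the log2 scale (SE 0.18, edgeR adjusted p = 1.13e-11), and SCN2A had a log2 fold change of -1.69 ± 0.42 (adjusted p = 0.00301). CACNA2D4, an auxiliary calcium channel subunit, gave 22 and 15 counts in shNC, with 0 and 2 in shHMGA2-1 and then 0 and 0 in shHMGA2-2. KCNK2, a two-pore potassium channel, had 11 and 12, 3 and 7, then 1 and 0. KCNH1, CACNA2D4 and KCNK2 reached the test through their shNC counts alone, which chose them, so they are described by counts. Summed over all 135 listed genes, the level was 487 and 488 CPM in shNC, then 403 and 382 in shHMGA2-1 and finally 187 and 194 in shHMGA2-2.

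Signalling members split in a similar way. Of the 11 kinases, GTPase regulators and adaptors, 5 kept at least 10 counts in both shHMGA2-1 libraries and 3 had at most 3. PIK3CG, the catalytic gamma subunit of phosphoinositide 3-kinase, gave 415 and 371 counts in shNC, with 348 and 334 in shHMGA2-1 and then 1 and 0 in shHMGA2-2. RASEF, a small GTPase with an EF hand, had 205 and 258, 183 and 231, then 3 and 1. Neither passed the test in shHMGA2-1 (PIK3CG -0.28 ± 0.12, edgeR adjusted p = 0.0794, RASEF -0.24 ± 0.16, adjusted p = 0.279). At the other end, TNIP3, an inhibitor of NF-kappaB signalling, gave 33 and 52 counts in shNC, with 3 and 3 in shHMGA2-1 and then 2 and 2 in shHMGA2-2, and HCLS1, a cortactin-like adaptor of blood cells, had 21 and 15, then 0 in all 4 knockdown libraries.

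Of the 10 members of the cytoskeleton, membrane traffic and synapse, 7 kept at least 10 counts in both shHMGA2-1 libraries and 1 had at most 3. MPP4, a scaffold protein of photoreceptor synapses, gave 513 and 482 counts in shNC, with 154 and 196 in shHMGA2-1 and then 2 and 3 in shHMGA2-2, and fell in shHMGA2-1 (-1.58 ± 0.14, edgeR adjusted p = 1.47e-09). AMPH, an amphiphysin of clathrin-coated vesicles, had 375 and 432, 339 and 379, then 0 and 2. SNCAIP, which binds alpha-synuclein, had 328 and 340, 202 and 188, then 2 and 2. AMPH overlapped between shNC and shHMGA2-1 (-0.25 ± 0.13, adjusted p = 0.151), and SNCAIP did not and was lower (-0.85 ± 0.13, adjusted p = 1.67e-05). SHANK1, a postsynaptic scaffold, gave 22 and 17 counts in shNC, with 3 and 0 in shHMGA2-1 and then 0 and 0 in shHMGA2-2.

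**Figure D5:**
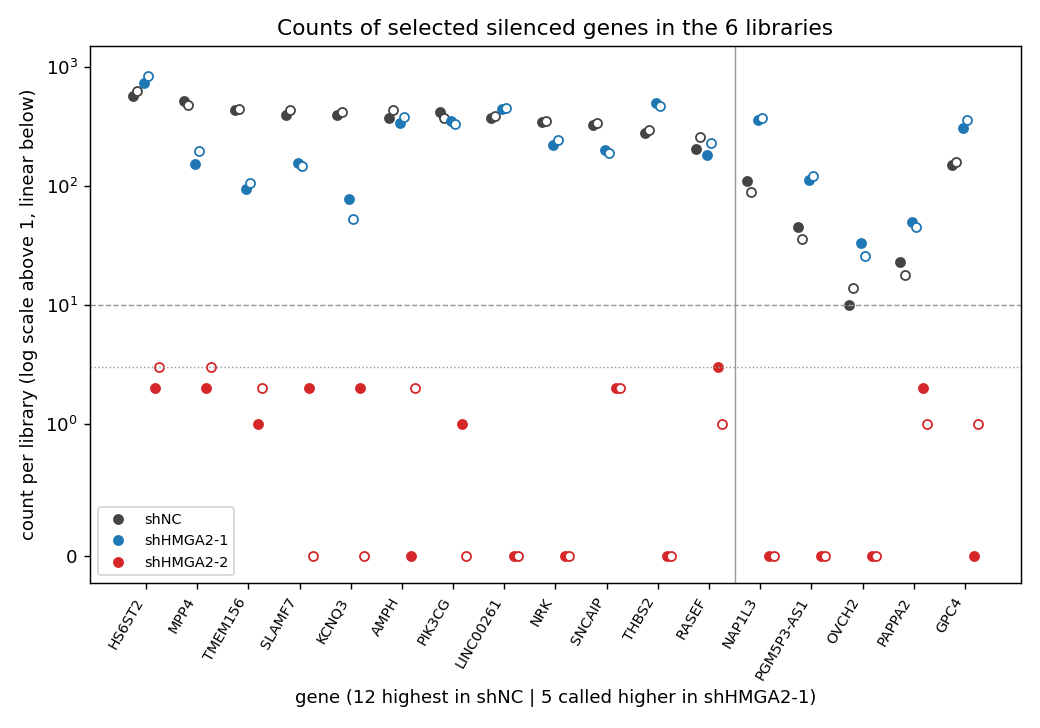
Counts (vertical, log scale above 1 and linear below) in the 6 libraries for the 12 silenced genes with the highest CPM in shNC, left of the line, and the 5 called higher in shHMGA2-1, right of it, with filled points for replicate 1, open points for replicate 2, and dashed and dotted lines at the rule's 10 and 3 counts. All red points (shHMGA2-2) lie at or below 3, while the blue points (shHMGA2-1) range from 26 for OVCH2 to 845 for HS6ST2.

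Nuclear and metabolic members were few. Of 6 nuclear proteins, 3 kept at least 10 counts in both shHMGA2-1 libraries. Of 388 genes named as C2H2 zinc fingers with at least 10 counts in both shNC libraries none was a member, beside 0.963% of all such genes. Of the 6 metabolic members, 3 kept at least 10 counts in both shHMGA2-1 libraries. SDR16C5, a retinol dehydrogenase, gave 16 and 24 counts in shNC, with 23 and 18 in shHMGA2-1 and then 3 and 3 in shHMGA2-2, with a log2 fold change in shHMGA2-1 of -0.04 (adjusted p = 0.96). SLC10A5, the only member of 206 solute carrier genes with at least 10 counts, had 19 and 12, 12 and 11, then 0 and 1 (-0.50 ± 0.52, adjusted p = 0.501).

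Counting genes with at least 10 counts in both shNC libraries, several lists held no member. These were Wnt pathway (26 genes), HOX (6), imprinted (19), cancer-testis (3), cadherin (22), keratin (9) and major histocompatibility class II genes (3). The same was true of the 9 breast luminal markers, the 4 fibroblast markers, the 2 neuronal markers and the 11 MDA-MB-231 markers that reached 10 counts in both shNC libraries. Of all such genes 0.963% were members, so lists of these sizes can hold none and nothing is read from it. WNT7B and WNT5A, both low in shHMGA2-2, missed the rule. The MDA-MB-231 markers summed to 7354 and 7497 CPM in shNC, then 7042 and 6840 in shHMGA2-1 and finally 6803 and 6837 in shHMGA2-2. They were thus read at like levels in all lines. The list of transforming growth factor beta and BMP genes held 1 member of 36 (BMP2), and that of extracellular matrix genes 1 of 48 (THBS2).

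Of the 54 noncoding, pseudogene and unannotated members, 27 kept at least 10 counts in both shHMGA2-1 libraries and 6 had at most 3. LINC00261, a long noncoding RNA beside FOXA2, gave 374 and 388 counts in shNC, with 439 and 449 in shHMGA2-1 and then 0 and 0 in shHMGA2-2. Its neighbour FOXA2, a pioneer transcription factor of endoderm, missed the rule by 1 count and had 692 and 661 counts in shHMGA2-1. Both genes were thus high in shNC and shHMGA2-1 and nearly silent in shHMGA2-2, and LINC00261 gave 0.14 ± 0.11 (edgeR adjusted p = 0.374) in shHMGA2-1.

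Other noncoding members were low in both knockdown lines. CASC16 gave 20 and 18 counts in the controls and no count in the 4 knockdown libraries. ENSG00000249743 gave 22 and 33 counts in shNC, with 0 and 2 in shHMGA2-1 and then 0 and 0 in shHMGA2-2, and ENSG00000287848 had 12 and 18, 0 and 1, then 0 and 1. LINC02910 had a mean of 3.14 ± 0.0859 CPM (SD, n = 2) in shNC and 0.175 ± 0.0851 in shHMGA2-1. These members reached the test through their shNC counts alone, which chose them, so they are described by counts. C10orf90, a protein-coding gene of little-known role, had 14 and 17 counts, 2 and 0, then 0 and 1.

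PGM5P3-AS1 was the noncoding member called higher. It gave 45 and 36 counts in shNC, with 113 and 120 in shHMGA2-1 and then 0 and 0 in shHMGA2-2, and its log2 fold change in shHMGA2-1 was 1.44 ± 0.24 (edgeR adjusted p = 5.2e-05). It overlaps WASHC1, a gene with near-identical copies, which gave 75 and 66 counts in shNC, with 157 and 161 in shHMGA2-1 and then 69 and 82 in shHMGA2-2, so the assignment of its reads is uncertain.

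The 2 small RNA members were a Y RNA, whose many copies make its reads uncertain, and MIR138-1. MIR138-1 is a hairpin precursor of miR-138 on chromosome 3, and its 2 mature arms are shown since it is the only microRNA gene in the set, with the seed (bases 2 to 8) in capitals, from RefSeq on GRCh38.p14.
hsa-miR-138-5p, chr3:44114234-44114256, plus strand: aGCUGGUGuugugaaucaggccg
hsa-miR-138-1-3p, chr3:44114274-44114295, plus strand: gCUACUUCacaacaccagggcc

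The seeds of these arms, GCUGGUG and CUACUUC, differ. MIR138-1 gave 19 and 15 counts in shNC, with 13 and 11 in shHMGA2-1 and then 0 and 2 in shHMGA2-2, and did not pass the test in shHMGA2-1 (-0.58 ± 0.51, edgeR adjusted p = 0.426). The libraries were made from captured mRNA, and a count over the hairpin does not measure the mature arms. ENSG00000280435, a neighbouring gene on the chromosome, gave 925 and 966 counts in shNC, with 378 and 365 in shHMGA2-1 and then 48 and 58 in shHMGA2-2.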

How the data were processed

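RNA sequencing of 6 libraries was analysed, with groups and replicate numbers from the sample titles. Control libraries bear a wild type name beside the shNC title, and SH2 stands in the library names of shHMGA2-1. The authors deposited 1 table with raw counts and FPKM values per gene and library, its position and its GO terms; 0 sample columns were left unused. The submitters' processing notes name HISAT2 2.2.1, HTSeq 0.6.1 and GRCh38.p13; the strand setting is not given in the sources used here. Coordinates are those of the table, and gene classes came from GENCODE version 29. The set was found from the counts, and FPKM served for levels between genes. The members, the lists and the roles were chosen with earlier results of these data known.

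edgeR 4.0.16 in R 4.3.3 was run with TMM normalization, filterByExpr, 3 groups in 1 model, the quasi-likelihood test and Benjamini-Hochberg adjustment over 16110 genes. A call needed an adjusted p under 0.05 and a 2-fold change. The model shares its estimate of the spread between the 3 lines. Relative to counting error, the 2 libraries of a line differed most in shHMGA2-1. Their chi-square per degree of freedom was 6.21, against 2.03 in shNC and 2.91 in shHMGA2-2. The spread in shHMGA2-1 may therefore be underestimated. Named genes were the 12 members highest in shNC, the 10 largest decreases and increases in shHMGA2-1 among those called, 10 of those with at most 3 counts there, adjacent members, list members, those beside the thresholds and HMGA2; other genes were named after their values were seen, as neighbours or overlapping partners. On simulated counts of shHMGA2-1 against shNC over 14882 genes, edgeR recovered 198 of 200 genes changed 4-fold. Recovery was not measured by count level. It therefore gives no rate for the 80 members whose lowest shNC count was 10 to 19, and none for changes under 4-fold. Alternatives were DESeq2 1.42.0, upper quartile normalization, no filter, a replicate block, 2 groups only, other thresholds and leaving out each library.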

Additional observations from a re-analysis of the deposited data

Results flagged for a closer look

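Of the members named, 7 passed the test upwards in shHMGA2-1 with both libraries above both shNC libraries, while both shHMGA2-2 libraries lay below shNC. Their log2 fold changes in shHMGA2-1 against shNC were 1.81 for NAP1L3, 1.44 for PGM5P3-AS1, 1.21 for OVCH2, 1.13 for PAPPA2, 1.03 for GPC4, 0.67 for THBS2 and 0.33 for HS6ST2. The direction in shHMGA2-2 was fixed by the choice of members, both lines were set against the same shNC libraries, and the difference between the lines was not tested.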

How the results depend on the processing

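HMGA2 kept its direction and its call in both lines under every alternative run. The 51 members called lower and 5 called higher in shHMGA2-1 were 24 and 3 with DESeq2, which gave no adjusted p for 27 members, and 42 to 50 and 3 to 5 when a library was left out; without shNC replicate 1, without shNC replicate 2 and without shHMGA2-1 replicate 1 the higher calls numbered 3. The median of -0.87 was -0.94 with DESeq2, -0.80 with upper quartile normalization, -0.93 without a filter and -0.96 to -0.86 when a library was left out. Upper quartile normalization moved the median of all genes from 0.01 to 0.07.

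The size of the set depends on its thresholds. It was 40 genes with no count allowed in shHMGA2-2, 205 with 5 allowed, 56 with at least 20 counts in shNC, and 186 to 206 when a library was left out (206 without shHMGA2-2 replicate 2). With counts scaled to the mean library total, where 3 counts can become more than 3, it was 99. Of members with at least 20 counts in both shNC libraries, 47 had at least 10 and 2 had at most 3 counts in both shHMGA2-1 libraries, against 71 and 16 of all members. The 10 members next to another member were 8 under both other orders.

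The replicate numbers shared by the lines paired no libraries that sources describe as a batch. Deviations of same-numbered libraries correlated at -0.022, 0.00135 and -0.144. With the replicate block, 47 members were called lower and 4 higher, with a median of -0.91, and among named members OVCH2 (adjusted p = 0.0707) and VN1R48P (0.0556) were lost.

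Of 494 values for 46 named members, 462 kept direction and side of the threshold and 26 lost significance. The losses were for CSF3, HS6ST2, KCNH1, OVCH2, PAPPA2 and VN1R48P, the last under 10 of 11 alternatives. CSF3, KCNH1 and VN1R48P reached the test through their shNC counts alone, which chose them, so their calls support no statement. Members near 0 changed sign: SDR16C5 to 0.02 with upper quartile normalization and between -0.31 and 0.28 as a library was left out (above 0 without shNC replicate 2 and without shHMGA2-1 replicate 2), ENSG00000288844 between -0.52 and 0.15 (above 0 without shHMGA2-1 replicate 2), and TMEM30B between -0.38 and 0.18 (above 0 without shNC replicate 2 and without shHMGA2-1 replicate 1). The cause of these shifts was not tested.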
